A study of Mus musculus with 10 samples.

Results

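The insulin-like growth factor (IGF) axis was followed here through 9 genes of the 50763 in the count table: the ligand gene Igf1, the receptor genes Igf1r and Insr, and the binding protein genes Igfbp2, Igfbp3, Igfbp4, Igfbp5, Igfbp6 and Igfbp7. The genes were taken by name, as members of the pathway, and all 9 were found in the table.

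IGF1 is a secreted growth factor that signals through the tyrosine kinase receptor IGF1R and, more weakly, through the closely related insulin receptor, and both receptors act through the PI3K and AKT kinases. Binding proteins hold IGFs outside the cell, where they carry or sequester the ligand until proteases release it. In the lens, IGF signaling is known for its part in epithelial proliferation and in fiber cell differentiation.

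RNA-seq was performed on lens epithelia of mice at 3 weeks of age from 2 transgenic lines, OVE853 (n = 3) and OVE918 (n = 4), and from wild-type (WT) controls (n = 3). Both lines secrete a constitutively active human TGF-β1 driven by the αA-crystallin promoter, which is active in the lens, and develop anterior subcapsular cataract plaques. All mice were inbred on the FVB/N background and the transgenic mice were homozygous. Each sample was a pool, of epithelia from up to 9 WT mice, up to 18 explants from 9 OVE853 mice or up to 14 explants from 7 OVE918 mice, so that a library averages over animals and holds plaque and surrounding epithelium together. The comparisons ask how the IGF axis genes differ from WT in each line, and between the lines.

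Total counts on genes lay between 24073311 and 31908525 per library. All 7 lens epithelium markers were detected in every library, and their summed level, in CPM (counts relative to library size, on the TMM scale), was 100433 to 189620, most of it from Cryaa and Cryab. Gja1, the lens epithelium marker that encodes connexin 43, was at a mean of 522 CPM in WT, 105 CPM in OVE853 and 63.6 CPM in OVE918 (log2 fold changes -2.31 and -3.05, edgeR FDR = 6.49e-06 and 1.10e-06). Cdh1, the E-cadherin gene, was at 321, 189.8 and 211 CPM (-0.76 and -0.61, edgeR FDR = 0.0212 and 0.0305). Means of the other markers in WT, OVE853 and OVE918 went both ways. Prox1 was at 398, 626 and 572 CPM, Foxe3 at 608, 744 and 559 CPM and Pax6 at 432, 440 and 370 CPM. Cryaa was at 111985, 80372 and 123068 CPM and Cryab at 35606, 25987 and 34385 CPM. In each line 1 of the 7 markers was reduced, and 0 elevated, past both limits of the test described below. Of all genes tested, 1.91% in OVE853 and 3.02% in OVE918 were reduced past both limits, and 2.51% and 2.58% were elevated. Reads counted on Tgfb1 can come from the mouse gene or, by cross-mapping, from the human transgene, and their sum was elevated over WT by a log2 fold change of 2.69 ± 0.13 (SE) in OVE853 and 3.83 ± 0.13 in OVE918 (edgeR FDR = 7.06e-07 and 1.03e-07). WT replicate 3 stood apart from the other WT libraries in markers of other cell types. Its summed level of 6 retinal neuron markers was 689 CPM, against 73.4 and 87.0 CPM in the other WT libraries and 26.8 to 124.5 CPM in the transgenic libraries, and that of 5 Müller glia markers was 1491 CPM, against 452 and 456 CPM in WT and 124 to 243 CPM in the transgenic libraries. Markers of corneal epithelium summed to 231, 906 and 1539 CPM in WT replicates 1 to 3 and to 26.1 to 92.6 CPM in the transgenic libraries, nearly all of it Aldh3a1 (228 to 1531 CPM in WT). Of the other corneal markers, Krt12 was at 0 counts in all 7 transgenic libraries, while Dsg1a was at a mean of 0.706 CPM in WT and 2.08 CPM in OVE853, and Krt14 at 0.122 CPM in WT and 0.486 CPM in OVE918. Of 5 non-pigmented ciliary epithelium markers tested, 3 were reduced in OVE853 and 4 in OVE918, past both limits of the test described next. The shares over all genes were 1.91% and 3.02%, and the median log2 fold change of the 5 markers was -2.39 and -3.62. Best2 was at a mean of 38.3 CPM in WT, 7.30 CPM in OVE853 and 2.15 CPM in OVE918, and Slc6a13 at 50.2, 5.56 and 1.84 CPM. The groups did not overlap for either. Of all genes, 45.3% did not overlap between OVE853 and WT, 27.3% between OVE918 and WT and 29.4% between the lines. Aqp1, the most abundant of that list, was at 635, 1218 and 807 CPM. In such pooled tissue, fewer cells of a type and less RNA per cell cannot be told apart.

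Of the 9 genes, 7 passed the expression filter of 2 FPKM (fragments per kilobase of exon, scaled to library size) in 5 libraries and were tested among 11097 genes. A gene was called differentially expressed (DEG) where its FDR did not exceed 0.05 and its log2 fold change was 1 or more in either direction. Igfbp3 was elevated and Igfbp4 was reduced in both transgenic lines, and the other 5 genes tested were not DEGs by edgeR in either line. DESeq2 called Igfbp5 in OVE853 as well. That is 2 of 7 in OVE853, where 4.42% of all genes tested were DEGs, and 2 of 7 in OVE918, where the share was 5.6%. By DESeq2 it was 3 of 7 and 2 of 7, against 4.94% and 6.2% of all genes. An unadjusted p under 0.05 was found for 4 of 7 and 3 of 7, as for 34.1% and 33.2% of all genes. Each of these counts includes Igfbp3, which reached 2 FPKM in 2 OVE853 and 4 OVE918 libraries and in 0 WT libraries. Its place among the 7 thus depended on its elevation, which limits the comparison of these counts with the shares. Igf1 and Igfbp6 fell below the filter and were tested among the 18058 genes of the wider edgeR filterByExpr set, in which Igf1 was reduced in OVE918 and Igfbp6 in both lines. In that set 3 of 9 genes were DEGs in OVE853 and 4 of 9 in OVE918, against 6.89% and 8.79% of all genes. DESeq2 called 5 of 9 and 4 of 9 there, Igf1 and Igfbp5 being the further ones in OVE853, against 9.81% and 10.8%. The WT libraries serve both comparisons, so the lines are not independent of each other. The median log2 fold change of all 11097 genes was -0.01 in OVE853 and 0.01 in OVE918.

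**Figure D1:**
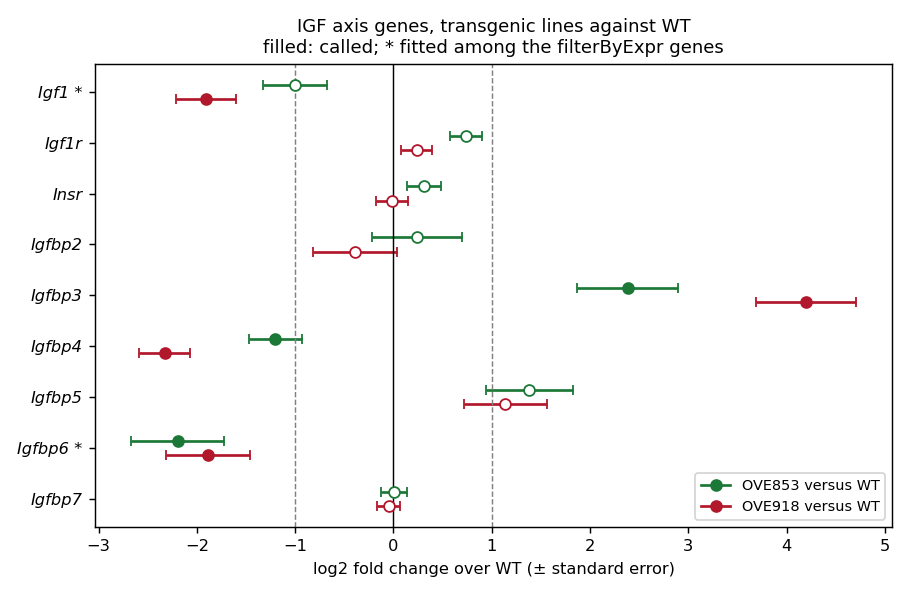
Log2 fold change over WT (x axis, ± SE) of the 9 IGF axis genes (y axis) in OVE853 (green) and OVE918 (red). Filled points are DEGs by edgeR, dashed lines mark a log2 fold change of 1 in either direction, and genes with an asterisk were fitted in the filterByExpr set; Igfbp3 lies to the right and Igfbp4 to the left in both lines.

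The ligand gene Igf1 lies on the plus strand of chromosome 10 from 87693642 to 87772904 (GRCm39). Its level was 10.8, 4.34 and 8.53 CPM in the WT libraries, 4.04, 3.99 and 3.70 CPM in OVE853 and 2.74, 1.55, 2.44 and 1.61 CPM in OVE918. The groups did not overlap, with WT highest and OVE918 lowest, although WT replicate 2 was close to OVE853. The counts behind these levels were few, at 36 to 256 read pairs per library. In OVE918, Igf1 was reduced by a log2 fold change of -1.90 ± 0.31 (SE, edgeR FDR = 0.00172), which is 3.74-fold. The OVE853 difference of -1.001 ± 0.32 did not pass by edgeR (FDR = 0.0628). It did pass by DESeq2 (-1.01, adjusted p = 0.0206), and by edgeR when WT replicate 2 was left out (-1.30, edgeR FDR = 0.0188). Between OVE918 and OVE853 the difference was -0.90 ± 0.31 (edgeR FDR = 0.173). The ciliary epithelium markers Best2 and Slc6a13 ran in the same order of groups as Igf1. Aqp1, the most abundant of that list, did not (means of 635, 1218 and 807 CPM in WT, OVE853 and OVE918). Nor did the summed list, at 700 to 978 CPM in WT, 1183 to 1396 CPM in OVE853 and 752 to 915 CPM in OVE918. The part of such cells in the Igf1 difference was not tested.

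Igf1r, the receptor that IGF1 binds with highest affinity, lies on the plus strand of chromosome 7 from 67601518 to 67883416. It was at 124.9, 128.04 and 113.0 CPM in WT, at 206, 208 and 196 CPM in OVE853 and at 130.6, 179, 163 and 106 CPM in OVE918. Every OVE853 library was above every library of the other groups, while OVE918 replicate 4 lay below all WT libraries. The OVE853 difference of 0.74 ± 0.17 (SE) passed the FDR limit (edgeR FDR = 0.0150) at 1.67-fold, short of the fold change set for a DEG. Without OVE853 replicate 1 or 2 it missed the limit (edgeR FDR = 0.0545 and 0.0513). At the FDR limit alone, 15.8% of all genes passed in that comparison. In OVE918 the difference from WT was 0.24 ± 0.16 (edgeR FDR = 0.323), and between the lines it was -0.50 ± 0.15 (edgeR FDR = 0.111).

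Insr encodes the insulin receptor and lies on the minus strand of chromosome 8 from 3172061 to 3329647. Its WT levels were 61.6, 49.8 and 46.8 CPM. The OVE853 levels of 66.7, 66.8 and 62.7 CPM lay just above them, and the OVE918 levels of 49.3, 63.04, 59.7 and 37.8 CPM spanned the WT range. Insr differed from WT by a log2 fold change of 0.31 in OVE853 (95% interval -0.03 to 0.65, edgeR FDR = 0.227) and -0.02 in OVE918 (95% interval -0.33 to 0.30, edgeR FDR = 0.958). The ratio of Igf1r to Insr, per length as FPKM, was 1.53 ± 0.182 in WT, 2.05 ± 0.0160 in OVE853 and 1.81 ± 0.0560 in OVE918 (mean ± SD). The ratios of the 3 groups did not overlap. The exact two-sided permutation test gave p = 0.1 for OVE853 and p = 0.0571 for OVE918 against WT, the smallest values that these group sizes allow, and 0.206 for both after Benjamini-Hochberg adjustment over 9 such tests.

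**Figure D2:**
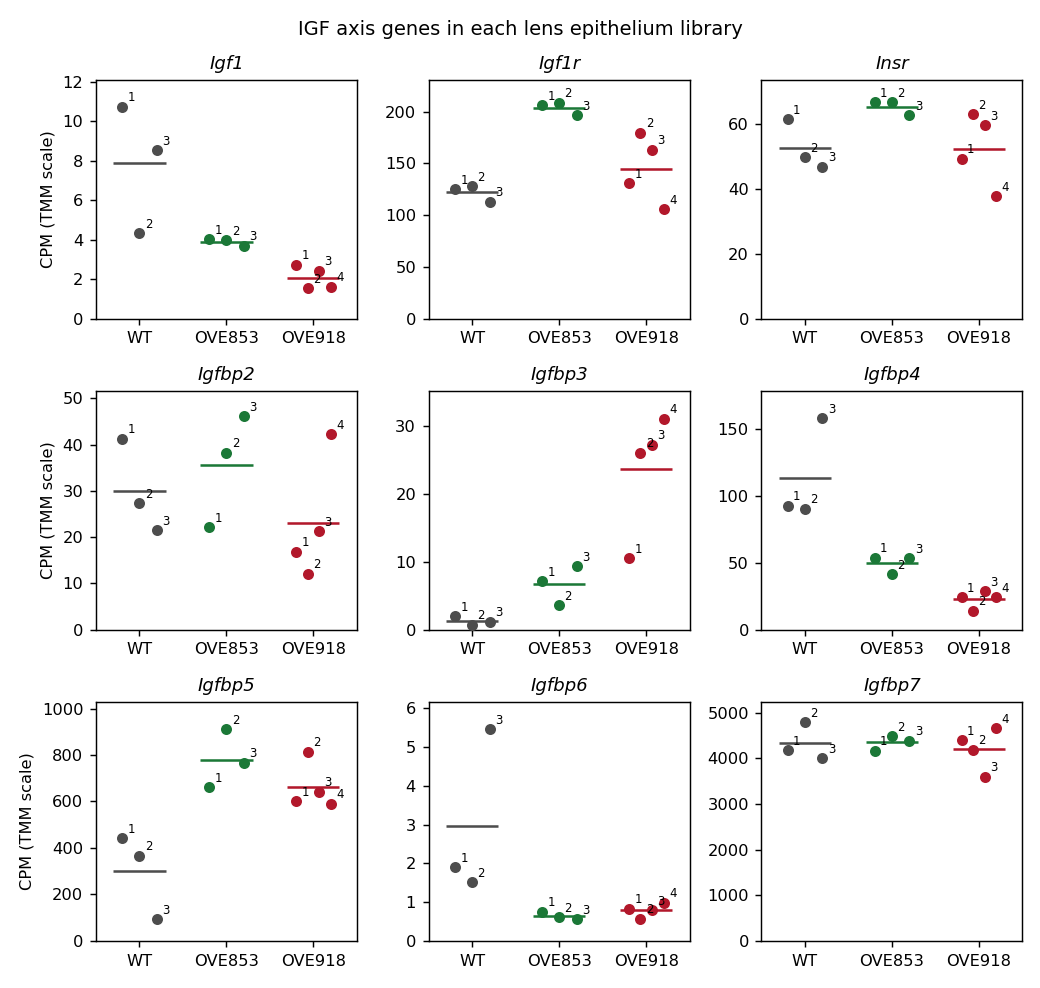
Level of each IGF axis gene (y axis, CPM on the TMM scale, from 0) in the libraries of WT, OVE853 and OVE918 (x axis). Points are libraries, numbered by replicate, and lines are group means; Igfbp3 is lowest and Igfbp4 highest in WT, and WT replicate 3 is the lowest library for Igfbp5 and the highest for Igfbp4 and Igfbp6.

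Among the binding proteins, Igfbp3 and Igfbp4 were the members called in both lines, in opposite directions, and their promoter sequences are shown for that reason. IGFBP3 is the main carrier of IGFs in blood and is also secreted within tissues, and IGFBP4 is known chiefly as an inhibitor of IGF action that the protease PAPP-A cleaves. The sequences are the 250 bases before the RefSeq start site on GRCm38.p6, read 5′ to 3′ on the strand of the gene, at chr11:7213924-7214173 on the minus strand for Igfbp3 and at chr11:99040994-99041243 on the plus strand for Igfbp4. Capitals mark TATAA, and no other match to the motifs named after the sequences was found in either window.
Igfbp3: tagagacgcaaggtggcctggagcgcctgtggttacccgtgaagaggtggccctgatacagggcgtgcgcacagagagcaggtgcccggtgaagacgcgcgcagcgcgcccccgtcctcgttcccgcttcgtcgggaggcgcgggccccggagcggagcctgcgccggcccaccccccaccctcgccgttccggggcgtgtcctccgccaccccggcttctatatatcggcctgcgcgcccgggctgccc
Igfbp4: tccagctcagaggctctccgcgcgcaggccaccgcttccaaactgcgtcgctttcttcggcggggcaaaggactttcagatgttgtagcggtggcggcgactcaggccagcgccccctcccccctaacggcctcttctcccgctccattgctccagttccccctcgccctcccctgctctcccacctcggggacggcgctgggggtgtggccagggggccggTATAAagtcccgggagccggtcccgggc

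The motifs searched, on both strands and not overlapping each other, were CAGAC, which holds the core that SMAD proteins bind, and TATAA, the core of the TATA box. RefSeq gave promoters for 8 of the 9 genes, without Insr. CAGAC was found in 3 of the 8, Igf1r, Igfbp2 and Igfbp6. Igfbp2 has 2 start sites, and only the window of the second held it. Counted per promoter rather than per gene, 42.2% of all 32851 promoters of this length held it. TATAA was found in Igfbp4, at 28 bases before the start, and in Igfbp6, at 147 bases before it, while 22.8% of all promoters held it. The Igfbp3 window holds the stretch tatatat near its end, which resembles a TATA box and which a search for TATAA does not count. The Igfbp3 window had a GC content of 73.2% and that of Igfbp4 of 69.2%.

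Igfbp3 lies on the minus strand of chromosome 11 from 7156086 to 7164179 (GRCm39), 3539 bases from Igfbp1, which had at most 4 counts in any library. Its level was 1.99, 0.743 and 1.17 CPM in WT, 7.12, 3.63 and 9.34 CPM in OVE853 and 10.6, 26.1, 27.3 and 31.07 CPM in OVE918. The 3 groups did not overlap, and OVE918 replicate 1 lay well below the rest of its group, close to the highest OVE853 library. Igfbp3 was elevated 5.22-fold in OVE853 (log2 fold change 2.38 ± 0.51, SE, edgeR FDR = 0.0138) and 18.3-fold in OVE918 (4.20 ± 0.51, edgeR FDR = 0.000372). No WT library reached 2 FPKM for Igfbp3, whereas 6 of the 7 transgenic libraries did, so that it passed the filter through the groups in which it was high. The OVE853 call was lost without WT replicate 3 (FDR = 0.0533) or OVE853 replicate 3 (FDR = 0.0506, both edgeR), with log2 fold changes of 2.33 and 2.07. In the filterByExpr set 1 of 7 endothelium markers in OVE853 and 4 of 7 in OVE918 were DEGs, all elevated, against 6.89% and 8.79% of all genes. Kdr, the most abundant of the 7 markers, ran the other way, with means of 45.6 CPM in WT, 9.72 CPM in OVE853 and 9.31 CPM in OVE918. Its WT mean rested largely on WT replicate 3, at 107 CPM. The lowest WT library was at 14.7 CPM, close to the highest OVE853 and OVE918 libraries at 13.5 and 13.7 CPM. The part of such cells in the Igfbp3 difference was not tested.

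Igfbp4 lies on the plus strand of chromosome 11 from 98932064 to 98945218. It was at 92.5, 90.3 and 157.8 CPM in WT, 53.9, 41.4 and 53.4 CPM in OVE853 and 24.2, 14.2, 28.9 and 24.1 CPM in OVE918. The groups did not overlap and ran in the reverse order of Igfbp3. Igfbp4 was reduced 2.30-fold in OVE853 (log2 fold change -1.20 ± 0.27, SE, edgeR FDR = 0.0162) and 5.03-fold in OVE918 (-2.33 ± 0.26, edgeR FDR = 0.000163). WT replicate 3, which had the highest retinal, Müller glia and corneal marker levels, also had the highest Igfbp4 level. The ciliary epithelium markers Best2 and Slc6a13, like Gja1, followed the order of Igfbp4 over the 3 groups, whereas Aqp1, the most abundant ciliary marker, did not. The part of a different mix of cells in the Igfbp4 difference was not tested. Without WT replicate 3 the log2 fold change was -0.88 in OVE853, below the DEG limit, and -2.01 in OVE918, still a DEG, and the OVE853 call was also lost without any 1 of the OVE853 libraries (edgeR FDR = 0.0506 to 0.0659).

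Igfbp5 encodes a binding protein that attaches to extracellular matrix, and it lies on the minus strand of chromosome 1 from 72897091 to 72914043, 5456 bases from Igfbp2 on the opposite strand. Its WT levels were 441, 367 and 92.4 CPM, its OVE853 levels 662, 911 and 767 CPM and its OVE918 levels 602, 814, 643 and 591 CPM. Every transgenic library was above every WT library, and WT replicate 3 was far below the other WT libraries. Differences of 1.38 ± 0.44 (SE, log2) in OVE853 and 1.14 ± 0.42 in OVE918 exceeded the fold limit, and neither passed the FDR limit by edgeR (FDR = 0.0628 and 0.0904), whereas DESeq2 called Igfbp5 in OVE853 (1.37, adjusted p = 0.0294) and not in OVE918. The 7 fibroblast and keratocyte markers, of which Kera was at 0 in all 10 libraries, summed to 302 to 572 CPM in WT, lowest in replicate 3, to 913 to 1009 CPM in OVE853 and to 529 to 769 CPM in OVE918, and their part in the Igfbp5 difference was not tested. Nearly all of that sum was Pdgfra and Col6a3. Of the low markers, Dcn had means of 1.34 CPM in WT, 0.386 CPM in OVE853 and 0.488 CPM in OVE918. Col3a1 ran the other way, at 0.601, 1.05 and 2.14 CPM, and Lum and Dpt had at most 13 and 4 counts in any library. Groups that do not overlap were found for 5 of the 7 genes tested in OVE853 and 3 of 7 in OVE918, against 45.3% and 27.3% of all genes. Without WT replicate 3 the spread was smaller and so was the difference: 0.95 in OVE853 (edgeR FDR = 0.00654) and 0.71 in OVE918 (edgeR FDR = 0.0170), both under the fold limit. Without WT replicate 1, in contrast, Igfbp5 was a DEG in both lines (1.76, edgeR FDR = 0.0330, and 1.52, edgeR FDR = 0.0468).

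Igfbp6, which encodes a binding protein that prefers IGF2 to IGF1, lies on the plus strand of chromosome 15 from 102052697 to 102057953. Its counts were few, at 16 to 164 read pairs per library. Its level was 1.90, 1.52 and 5.47 CPM in WT, 0.756, 0.605 and 0.557 CPM in OVE853 and 0.8289, 0.576, 0.790 and 0.986 CPM in OVE918. All transgenic libraries lay below all WT libraries, and the highest value was again that of WT replicate 3. In the filterByExpr set, Igfbp6 was reduced by -2.20 ± 0.47 (SE) in OVE853 (edgeR FDR = 0.0141) and by -1.89 ± 0.43 in OVE918 (edgeR FDR = 0.0118), which are 4.58-fold and 3.70-fold. Without WT replicate 3 these were -1.44 and -1.11 (edgeR FDR = 0.0226 and 0.0413), and the OVE853 call was lost without OVE853 replicate 2 or 3 (edgeR FDR = 0.0562 and 0.0639).

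Igfbp2, the gene of a binding protein that also circulates in blood, lies on the plus strand of chromosome 1 from 72863606 to 72891634. Its level was 41.3, 27.4 and 21.5 CPM in WT, 22.2, 38.3 and 46.1 CPM in OVE853 and 16.9, 12.1, 21.3 and 42.3 CPM in OVE918. The groups overlapped throughout. Against WT, Igfbp2 differed by 0.24 (log2) in OVE853 (95% interval -0.65 to 1.14, edgeR FDR = 0.734) and -0.39 in OVE918 (95% interval -1.23 to 0.45, edgeR FDR = 0.576), intervals that still hold a 2-fold higher level in OVE853 and a 2-fold lower level in OVE918.

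Igfbp7, whose product binds IGFs only weakly and is deposited in matrix, lies on the minus strand of chromosome 5 from 77493130 to 77555931. It was the most abundant gene of the axis, at 4185, 4788 and 4007 CPM in WT, 4173, 4487 and 4385 CPM in OVE853 and 4402, 4187, 3596 and 4666 CPM in OVE918. The groups overlapped, and the 10 libraries lay between 3596 and 4788 CPM. The fitted difference from WT was 0.01 (log2) in OVE853 (95% interval -0.25 to 0.26, edgeR FDR = 0.981) and -0.05 in OVE918 (95% interval -0.29 to 0.19, edgeR FDR = 0.817).

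Compared per length, as mean FPKM ± SD in WT, Igfbp7 (808 ± 76.4) was followed by Igfbp5 (50.0 ± 30.6), Igfbp4 (29.6 ± 9.99), Igfbp2 (22.8 ± 7.70), Igf1r (8.54 ± 0.557), Insr (5.62 ± 0.830), Igfbp6 (2.43 ± 1.78), Igf1 (1.11 ± 0.460) and Igfbp3 (0.480 ± 0.234). Neighbours in this order whose libraries overlapped were Igfbp5 and Igfbp4, Igfbp4 and Igfbp2, Igfbp6 and Igf1, and Igf1 and Igfbp3. In OVE853 the order was Igfbp7 (812), Igfbp5 (129.9), Igfbp2 (26.9), Igf1r (14.2), Igfbp4 (12.9), Insr (6.97), Igfbp3 (2.48), Igf1 (0.553) and Igfbp6 (0.525), and only Igf1r with Igfbp4 and Igf1 with Igfbp6 overlapped. In OVE918 Igfbp7 (787) and Igfbp5 (110.3) again came first, and Igfbp2 (17.5), Igf1r (10.1), Igfbp3 (8.78), Igfbp4 (5.95) and Insr (5.59) each overlapped with the next, ahead of Igfbp6 (0.652) and Igf1 (0.295). Igfbp3 was thus at rank 9 in WT and at rank 5 in OVE918, and Igfbp4 at rank 3 in WT and at rank 6 in OVE918.

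Igfbp7 made up 88.5% ± 2.58 of the summed FPKM of the 6 binding protein genes in WT, 82.5% ± 1.64 in OVE853 and 84.5% ± 2.00 in OVE918 (SD). The sum itself was 913 ± 87.5 FPKM in WT, 985 ± 55.3 in OVE853 and 930 ± 86.1 in OVE918 with exact two-sided permutation p = 0.3 and 0.743 against WT. Without Igfbp7 the sum was 105.2 ± 26.7 FPKM in WT, 173 ± 25.4 in OVE853 (exact permutation p = 0.1) and 143 ± 14.7 in OVE918 (exact permutation p = 0.114). The OVE853 value is the smallest that its group sizes allow, and both were 0.206 after Benjamini-Hochberg adjustment over the 9 permutation tests. Igfbp5 held 44.3% ± 21.2 of that remainder in WT, 75.2% ± 3.99 in OVE853 and 77.0% ± 8.35 in OVE918. Its share was 56.0%, 57.1% and 19.8% in WT replicates 1 to 3 and 66.0% to 85.5% in the transgenic libraries. Igfbp5 was thus the largest part of the remainder in every library but WT replicate 3, and its share was higher in every transgenic library than in any WT library.

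**Figure D3:**
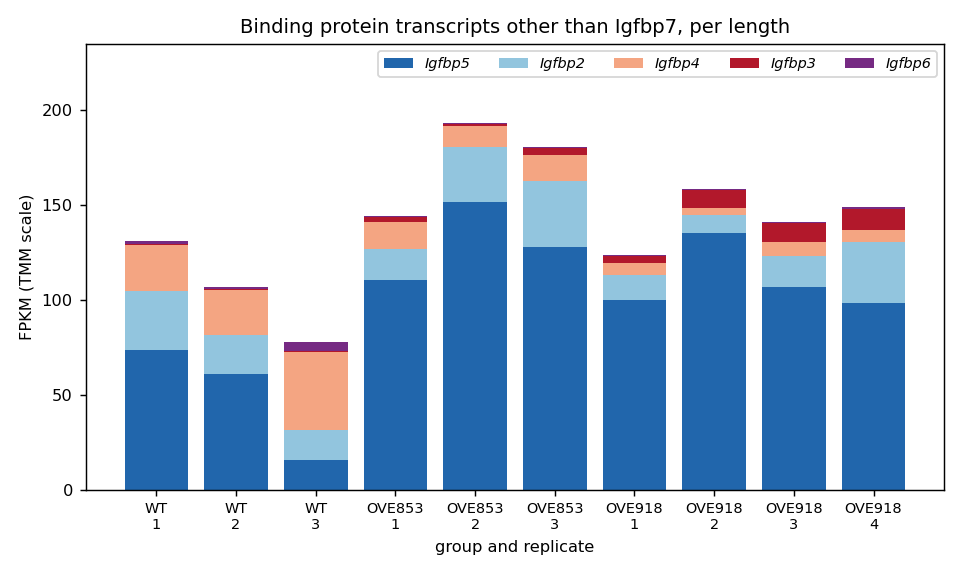
Stacked FPKM (y axis, TMM scale, from 0) of the binding protein genes other than Igfbp7 in each library (x axis, group and replicate). Igfbp5 (dark blue) is the tallest segment in every library but WT replicate 3, where Igfbp4 (orange) is taller, and Igfbp3 (red) is broad only in OVE918.

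The lines were also compared with each other. The log2 level of Igfbp3 was higher in OVE918 by 1.81 ± 0.43 (SE, edgeR FDR = 0.0712), and the difference for Igfbp4 was -1.13 ± 0.25 (edgeR FDR = 0.0609). By edgeR 0 of 7 genes were DEGs between the lines, where 0.487% of all genes were, and 3 of 7 had an unadjusted p under 0.05, as did 22.9% of all genes. DESeq2, which called 0.964% of all genes, called both Igfbp3 (adjusted p = 0.000325) and Igfbp4 (adjusted p = 0.000955), and edgeR called Igfbp4 without WT replicate 3 (FDR = 0.0181). The lines did not overlap for 3 of 7 genes, Igf1r, Igfbp3 and Igfbp4, as for 29.4% of all genes.

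The genes whose log2 CPM followed Igfbp3 most closely over the 10 libraries were Aebp1 (Pearson r = 0.983), which encodes a collagen-binding matrix protein, Fn1 (r = 0.965), which encodes fibronectin, and Gsr (r = 0.964), which encodes glutathione reductase. Those closest to Igfbp4 were Ifi27 (r = 0.991), F11r (r = 0.986), which encodes the junctional adhesion molecule JAM-A, and Ino80c (r = 0.985), which encodes a chromatin remodeling subunit. The points are the same 10 libraries of 3 groups, so that r includes the differences between the groups.

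Around the 9 genes, other ligands, receptors and binding proteins were few. Igf2r, which encodes the receptor that clears IGF2 and also binds latent TGF-β, was at 52.4, 66.2 and 48.4 CPM in WT, 154.5, 156.8 and 151.2 CPM in OVE853 and 129.4, 172, 168 and 124.9 CPM in OVE918. It was elevated in both lines, with log2 fold changes of 1.47 ± 0.15 (SE, edgeR FDR = 0.000172) and 1.41 ± 0.15 (edgeR FDR = 8.53e-05), with no overlap between WT and either line. It was the only DEG among the 3 genes of that list tested in the FPKM set, where 4.42% and 5.6% of all genes were DEGs. In the filterByExpr set 2 of 6 genes of the list were DEGs by edgeR in each line, against 6.89% and 8.79% of all genes. DESeq2 called 2 of 6 in OVE853 and 3 of 6 in OVE918, against 9.81% and 10.8%. The further one in OVE918 was Igfbpl1, a binding protein-like gene of low counts, with 0 to 9 per library in WT, 0 to 1 in OVE853 and 8 to 32 in OVE918. Igf2, the second IGF ligand, was at 6.61, 9.91 and 33.5 CPM in WT, 26.3, 28.1 and 15.8 CPM in OVE853 and 7.05, 9.07, 12.2 and 9.73 CPM in OVE918, and the WT range covered all the transgenic libraries (edgeR FDR = 0.554 and 0.289). Insulin transcripts were near or below detection, with 0 counts of Ins1 in every library, which allows up to 3 counts per library, and at most 9 counts of Ins2.

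Insrr, the gene of an orphan receptor related to the insulin receptor, had WT levels of 6.87, 5.90 and 11.2 CPM, and lay between 0.426 and 0.570 CPM in OVE853 and between 0.224 and 0.622 CPM in OVE918. In the filterByExpr set it was reduced by -4.02 ± 0.38 (SE, edgeR FDR = 0.000144) and -4.11 ± 0.35 (edgeR FDR = 3.05e-05), the largest differences of any gene on these lists apart from Igfbp3 in OVE918. WT replicate 3 was again highest, and without it the log2 fold changes were -3.74 and -3.79.

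None of the 20 PI3K, AKT and mTOR genes tested in the FPKM set was a DEG by edgeR in either line, nor by DESeq2. Of all genes 4.42% in OVE853 and 5.6% in OVE918 were DEGs by edgeR, and 4.94% and 6.2% by DESeq2. Of the 20 genes, 7 in OVE853 and 3 in OVE918 had an unadjusted p under 0.05, against 34.1% and 33.2% of all genes. Their median log2 fold change was 0.07 in OVE853 and -0.04 in OVE918. At the FDR limit alone, which 15.8% of all genes passed in OVE853 and 19% in OVE918, 1 gene was higher and 2 were lower in each line, all named after their values were seen. The higher one was Pik3r1, which encodes the p85α regulatory subunit of PI3K, with 0.91 ± 0.16 (SE) in OVE853 (edgeR FDR = 0.00469) and 0.58 ± 0.15 in OVE918 (edgeR FDR = 0.0229). In OVE918 it missed the limit without WT replicate 1 or 3 or without OVE918 replicate 2 or 3 (edgeR FDR = 0.0509 to 0.0713). Mtor, which encodes the kinase mTOR, was lower, at a mean of 406 CPM in WT, 287 CPM in OVE853 and 295 CPM in OVE918 (-0.51 ± 0.13, edgeR FDR = 0.0231, and -0.47 ± 0.12, edgeR FDR = 0.0175). Without WT replicate 2 it missed the limit in both lines, as it did in OVE853 without any 1 of the OVE853 libraries and in OVE918 without OVE918 replicate 3 (edgeR FDR = 0.0554 to 0.0824). Pik3r3, the gene of another regulatory subunit of PI3K, was also lower (-0.37 ± 0.11, edgeR FDR = 0.0474, and -0.52 ± 0.11, edgeR FDR = 0.00584). Leaving out any 1 library other than OVE918 replicate 4 ended the OVE853 result (edgeR FDR = 0.0517 to 0.136).

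Among receptor substrates and adaptors, 0 of 9 genes were DEGs in OVE853 by edgeR and by DESeq2, with 5 at an unadjusted p under 0.05, and 1 of 9 was a DEG in OVE918 by both, again with 5 at an unadjusted p under 0.05. Of all genes 4.42% and 5.6% were DEGs by edgeR and 34.1% and 33.2% had such a p. That gene was Grb10, which encodes an adaptor that dampens insulin and IGF1 receptor signaling. It was at 14.99, 14.93 and 20.6 CPM in WT, 7.24, 11.3 and 9.87 CPM in OVE853 and 7.09, 5.40, 5.35 and 6.37 CPM in OVE918, without overlap between any of the groups. Grb10 differed from WT by -0.84 ± 0.20 (SE, edgeR FDR = 0.0171) in OVE853, short of the fold limit, and -1.49 ± 0.18 (edgeR FDR = 0.000277) in OVE918, and the OVE853 difference missed the FDR limit without OVE853 replicate 1 (edgeR FDR = 0.0686).

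The proteases that cleave binding proteins, with their inhibitors, had 0 DEGs of 4 genes tested in either line by edgeR, where 4.42% and 5.6% of all genes were DEGs. An unadjusted p under 0.05 was found for 2 genes in OVE853 and 3 in OVE918, against 34.1% and 33.2% of all genes. DESeq2, which called 4.94% and 6.2% of all genes, called 0 in OVE853 and 1, Adam12, in OVE918 (edgeR log2 fold change 1.65 ± 0.54, SE, FDR = 0.0627). Htra1, a secreted serine protease gene named after its values were seen, was at 749, 643 and 428 CPM in WT, at 1101, 1216 and 1102 CPM in OVE853 and at 1024, 1172, 1075 and 1452 CPM in OVE918. Its log2 fold changes of 0.91 ± 0.19 (SE, edgeR FDR = 0.0112) and 0.95 ± 0.18 (edgeR FDR = 0.00437) passed the FDR limit and not the fold limit, and without WT replicate 1 they passed both (1.083 and 1.12), as did OVE918 without OVE918 replicate 1 (1.01). In the filterByExpr set Stc1, which encodes an inhibitor of PAPP-A, was a DEG in OVE918 at -1.05 ± 0.32 (edgeR FDR = 0.0475), close to both limits, and leaving out any 1 library other than WT replicate 2 ended that call (edgeR FDR = 0.0535 to 0.132). Stc2, which encodes the other stanniocalcin and is named after its values were seen, lay the opposite way, at 2.38, 1.23 and 0.1999 CPM in WT, 3.89, 5.73 and 4.03 CPM in OVE853 and 3.73, 4.14, 4.16 and 5.65 CPM in OVE918. Every transgenic library was above every WT library, and WT replicate 3, with 6 counts, was lowest. By edgeR the differences of 1.87 ± 0.59 (SE, FDR = 0.0606) and 1.83 ± 0.57 (FDR = 0.0513) did not pass, whereas DESeq2 called both (adjusted p = 0.00923 and 0.00482). Without WT replicate 3 they were 1.31 and 1.30 and passed (edgeR FDR = 0.0270 and 0.0171), as they did without WT replicate 1 (2.69 and 2.65). In this set DESeq2 further called Pappa2, a gene of a binding protein protease, in OVE918, where edgeR gave -1.10 ± 0.38 (FDR = 0.0707).

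FoxO factors and their targets, genes that FoxO proteins switch on when AKT signaling is low, had 1 DEG of 12 tested in OVE853 and 2 of 12 in OVE918, all reduced. Of all genes 4.42% and 5.6% were DEGs in either direction in these comparisons, and 1.91% and 3.02% were reduced DEGs. An unadjusted p under 0.05 was found by edgeR for 4 of the 12 in OVE853 and 5 in OVE918, against 34.1% and 33.2% of all genes. Sesn1, which encodes a stress-induced inhibitor of mTORC1, was at 63.5, 95.7 and 96.0 CPM in WT, 36.3, 45.9 and 38.03 CPM in OVE853 and 41.5, 35.2, 39.9 and 36.9 CPM in OVE918. It was reduced in both lines, by -1.09 ± 0.16 (SE, edgeR FDR = 0.00147) and -1.16 ± 0.15 (edgeR FDR = 0.000335), and without WT replicate 3 the OVE853 difference was -0.99, just under the fold limit. Klf15, which encodes a metabolic transcription factor, was reduced in OVE918 at -1.51 ± 0.13 (edgeR FDR = 2.16e-05) and stood just under the fold limit in OVE853 at -0.98 ± 0.14 (edgeR FDR = 0.00101), over it without WT replicate 1 (-1.11) or OVE853 replicate 2 (-1.04). Fbxo32, which encodes the ubiquitin ligase atrogin-1, was a DEG in both lines in the filterByExpr set, at -1.36 ± 0.31 (edgeR FDR = 0.0190) and -1.17 ± 0.29 (edgeR FDR = 0.0184). Its OVE853 call was lost without any 1 of the OVE853 libraries (edgeR FDR = 0.0649 to 0.0751), and its OVE918 call without WT replicate 3 (-0.82), OVE918 replicate 2 (-0.998) or OVE918 replicate 3 (edgeR FDR = 0.0528). The median of the 12 FoxO genes was -0.14 in OVE853 and -0.22 in OVE918.

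**Figure D4:**
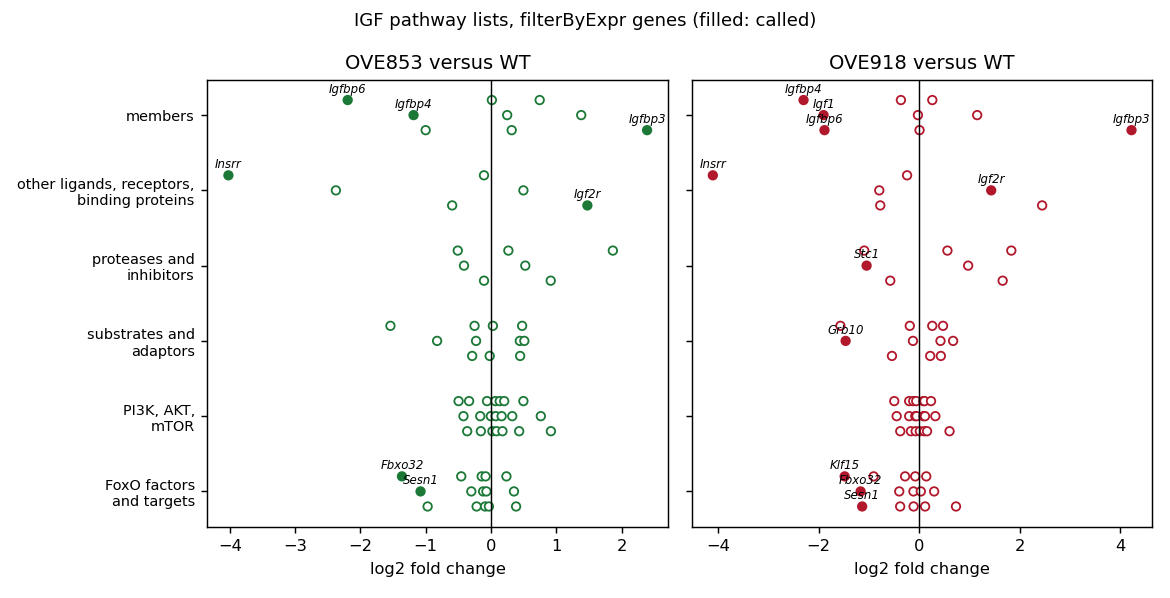
Log2 fold change over WT (x axis) in OVE853 (left) and OVE918 (right) of every gene of the IGF pathway lists that passed filterByExpr, by list (y axis, with small vertical offsets for legibility). Filled and named points are DEGs; the PI3K, AKT and mTOR genes lie between -1 and 1 with no DEG, and the DEGs furthest out are Igfbp3 to the right in both lines and Insrr to the left in both.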

How the data were processed

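RNA of 10 pooled lens epithelium samples was sequenced as 150 bp read pairs. Per the submitters' processing notes and the study's methods, the authors used cutadapt 5.2 for trimming, STAR 2.7.11b for alignment to GRCm39 and featureCounts 2.0.8 for strand-specific counting per gene. The deposited values are raw counts of 50763 genes, and sequencing depth and the spread between pools limit their precision. Every count column was matched to a sample.

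Counts were analysed with edgeR 4.0.16 in R 4.3.3 (TMM, robust quasi-likelihood, 1 fit of 3 groups, Benjamini-Hochberg adjustment over all genes tested in each comparison). FPKM used GENCODE vM39 exon lengths by symbol, which 43252 symbols matched directly and 22 through a synonym, and 7489 symbols had none, whereas the authors used RefSeq lengths. CPM and FPKM are on the TMM scale. Intervals are 95% by a normal approximation from the standard error. They take no account of the limited degrees of freedom and so can be too narrow. Read pairs are not independent molecules.

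The genes and lists were chosen with earlier results of these data known. All 9 genes are named, and of the other lists the DEGs (at most 5 each), Igf2, Igf2r and the 3 closest genes of each called gene. Alternatives were DESeq2 1.42.0, other scalings and filters, only the groups compared, no robust estimation, FDR alone, a replicate block and leaving out each library. Steps were tested on simulated data. Within groups, the chi-square of counts per degree of freedom was 12.8 to 129, so no library was a copy of another. Samples are pools of different mice, so p-values measure the spread between pools.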

Additional observations from a re-analysis of the deposited data

How the results depend on the processing

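Counts of DEGs among the tested members were 2 in OVE853, 2 in OVE918 and 0 between the lines. In OVE853 they ranged from 0 to 3 when 1 library was left out, with 0 without WT replicate 3 or without OVE853 replicate 3, 1 without OVE853 replicate 1 or 2, and 3 without WT replicate 1. In OVE918 they ranged from 2 to 3, with 3 without WT replicate 1, and between the lines from 0 to 1, with 1 without WT replicate 3. In OVE918 filterByExpr and no filter each gave 4 of 9, since Igf1 and Igfbp6 then enter the test. Between the lines DESeq2 gave 2, and the fit of only the groups compared gave 1. Over all genes, 491, 621 and 54 DEGs became 1244, 1587 and 44 with filterByExpr, 1061, 1548 and 59 with no filter, and 1752, 2110 and 146 at the FDR limit alone, and DESeq2 and the fit of only the groups compared gave 107 and 97 between the lines. Leaving out 1 library gave 334 to 664, 523 to 729 and 6 to 93.

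For samples that share a replicate number, deviations from the group means correlated at -0.30 to 0.08. The labels name no pairing behind the number, and so few libraries cannot show whether a batch was shared. With the number as a replicate block 2, 2 and 1 members were DEGs, Igfbp4 being the one between the lines (-1.20, edgeR FDR = 0.0460), and 28 genes in all were DEGs between the lines.

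The direction changed for values near 0. For Insr in OVE918 (-0.016) it was 0.019 with upper-quartile factors, 0.0040 with filterByExpr, 0.0026 with no filter and 0.12 with the replicate block, and leaving out 1 library gave -0.12 to 0.11, above 0 without WT replicate 1 and OVE918 replicates 1 and 4. For Igfbp7 leaving out 1 library gave -0.041 to 0.075 in OVE853, -0.099 to 0.027 in OVE918 and -0.11 to 0.013 between the lines. Of 993 values of single genes under an alternative, 926 kept direction and call, 31 lost the call, 22 gained it and 14 changed direction, and the cause was not tested. With no filter the Igfbp3 call in OVE853 was lost (edgeR FDR = 0.0502). Low counts limit Igf1, Igfbp6 and Igfbp3 in WT.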
